A study of Arabidopsis thaliana with 20 samples.

Results

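The xyloglucan endotransglucosylase/hydrolase (XTH) genes studied here were 10 loci picked by name: XTH4, XTH5, XTH9, XTH15, XTH16, XTH18, XTH22 (also called TCH4), XTH23, XTH24 and XTH33. They were taken by locus from the 33601 loci counted in each library, and all 10 were among the 21404 loci with enough reads to be tested. The choice was made with earlier results of these data known. XTH enzymes act in the plant cell wall, where xyloglucan chains tether cellulose microfibrils. The enzymes cut a xyloglucan chain and join the cut end to another chain, or in some members to water, which lets a wall be remodelled while the cell expands. In Arabidopsis shoots the family is known for its many members with separate patterns of expression, and for members that respond quickly to touch, brassinosteroid, auxin or temperature.

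The RNA-Seq libraries came from aerial tissue of wild-type Columbia-0 (Col-0) Arabidopsis seedlings grown in light/dark cycles at 23 °C, and no mutant or transgene was used. Heat plants were moved to 30 °C for 1 h from 0.5 h after dawn (AM heat, Zeitgeber time, ZT, 0.5) or from 0.5 h after dusk (PM heat, ZT 12.5), and mock-treated plants at 23 °C served as AM control and PM control, with 4 libraries in each of these 4 diel groups. A further 4 libraries, 1 for each condition, came from seedlings moved to constant light (LL) before the same treatments. In the diel groups the AM plants were in the light and the PM plants in the dark, so time of day and light cannot be told apart there. The labels do not say that replicates came from separate cultures, so p-values measure only the spread between these libraries, which may be technical.

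The diel libraries held 14637914 to 38812441 reads on loci and the constant light libraries 8594948 to 19957156. The level of a gene is given as CPM, its counts per 1000000 reads on loci, scaled between libraries by the trimmed mean of M-values (TMM). The label calls the tissue whole plant while the protocol names aerial tissue. The Rubisco small subunit gene RBCS1A, a green leaf marker, averaged 15826 to 20559 CPM in the 4 diel groups, while each of the 5 root markers averaged at most 30.9 CPM. Of the other leaf markers, RCA averaged 4296 to 19607 CPM. LHCB1.1 and LHCB2.1 averaged 8111 and 3393 CPM in AM control, but 113 and 18.6 CPM in PM control and 177 and 23.3 CPM in PM heat. In PM control LHCB2.1 was thus below the root marker RCI3, at 28.6 CPM. Those root markers were not at 0 in the controls. With AM heat 3 of 5 fell, as did 8.36% of all tested genes, and with PM heat 2 of 5, as did 10.6%. Their part in the XTH results was not tested. In bulk tissue, fewer cells of a type and less RNA per cell cannot be told apart.

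XTH proteins are known for a short active site with 3 acidic residues that carry out the cut and the transfer. The coding stretch around it is shown because it marks these loci as a family, and because its spelling sets XTH33 and XTH9 apart. It was found by translation in each of the 10 coding sequences and in those of the other XTH loci except XTH11, and the bases below are from RefSeq (TAIR10.1), 5′ to 3′ on the coding strand, with the codons of the 3 acidic residues in capitals.
XTH22: gacGAGataGATttcGAGtttttaggg
XTH23: gacGAGattGACtttGAGttcttggga
XTH24: gatGAGattGATtttGAGttcttgggt
XTH18: gatGAGattGATttcGAGttcttagga
XTH9: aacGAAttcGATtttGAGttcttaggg
XTH4: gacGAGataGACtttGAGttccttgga
XTH5: gatGAGataGACtttGAGtttctaggg
XTH15: gacGAGataGACtttGAGtttctaggt
XTH16: gacGAGataGACtttGAGtttcttggt
XTH33: gacGAGataGACataGAAttgttgggt
In 9 of these genes the codon between the second and the last acidic codon was ttt or ttc. In XTH33 it was ata, as it also was in XTH29, XTH30 and XTH32 among the other members of the family. In XTH31 it was atc, which codes for the same residue as ata. XTH9 alone began with aac, where all others had gac or gat. It alone had ttc between the first and the second acidic codon. The stretch lies at codons 96 to 104 in XTH22 and at codons 117 to 125 in XTH33.

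The 10 loci lie on all 5 nuclear chromosomes. In TAIR10.1 coordinates XTH22 (AT5G57560) lies at chr5:23307006-23308680 on the minus strand, next to XTH25, XTH13 and XTH12, none of which is among the 10. XTH23 (AT4G25810) lies at chr4:13128394-13129927 on the plus strand, beside XTH14. XTH24 (AT4G30270, chr4:14819192-14820595, minus strand) and XTH18 (AT4G30280, chr4:14825757-14827211, minus strand) lie in a row with XTH19. The other members lie at chr2:2763449-2765743 (XTH4, AT2G06850, plus), chr5:4474922-4477090 (XTH5, AT5G13870, minus), chr4:1415617-1417444 (XTH9, AT4G03210, plus), chr4:8137020-8138392 (XTH15, AT4G14130, minus), chr3:8550037-8551403 (XTH16, AT3G23730, plus) and chr1:3479066-3481041 (XTH33, AT1G10550, minus). XTH15 overlaps AT4G14120 on the other strand, and the counting used strand. Coding sequences were most alike for XTH22 and XTH23 (81.8% of aligned bases identical) and for XTH15 and XTH16 (81.7%). XTH18 was 92.2% identical to XTH17 and shares an exact transcript run of 68 bases with XTH19, so its counts are less certain than those of the others, whose longest shared run with any XTH was 16 to 30 bases.

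XTH22 is the gene first cloned as TCH4 for its rise within minutes of touch, and it also responds to brassinosteroid, darkness and temperature. In the 4 PM control libraries its level was 177, 412, 47.1 and 91.9 CPM, and in the 4 PM heat libraries 906, 1056, 859.7 and 604 CPM. Every PM heat library lay above every PM control library, and relative to their mean the controls were spread more widely (SD 163 CPM at a mean of 182 CPM) than the heated libraries (SD 188 CPM at a mean of 856 CPM). The PM heat response was 4.70-fold (log2 fold change 2.23 ± 0.60 SE, adjusted p = 0.0167 by edgeR's quasi-likelihood test, n = 4 per group). In the morning the control libraries held 80.0, 93.4, 28.1 and 79.9 CPM and the heated ones 143, 202, 39.7 and 58.9 CPM. These groups overlapped, and the log2 fold change was 0.66 ± 0.58 (adjusted p = 0.498).

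XTH23 (XTR6) is the closest relative of XTH22 among the 10. Its PM control level was 18.4, 87.3, 8.93 and 14.9 CPM, against 230, 249.6, 231 and 116 CPM after PM heat. The heated libraries were all higher, although control 2 stood far above its group and heat 4 far below its own. The fold was 6.37 (log2 2.67 ± 0.76, adjusted p = 0.0210), the largest PM heat response of the 10. AM control libraries held 8.39, 12.3, 5.09 and 4.45 CPM and AM heat libraries 35.2, 75.6, 6.41 and 9.17 CPM. All 4 pairs of equal replicate number were higher with heat, but the groups overlapped, and the log2 fold change of 2.06 ± 0.76 missed the threshold (adjusted p = 0.0793). With the replicate number as a block it was 1.70 and passed (adjusted p = 0.0136).

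XTH24 (MERI5), first isolated from shoot meristem tissue, was the most abundant of the 10 per kilobase after heat. PM control libraries held 306.5, 465.6, 118 and 229 CPM and PM heat libraries 818, 1015, 951.5 and 767 CPM. The groups were well apart, with a fold of 3.17 (log2 1.67 ± 0.49, adjusted p = 0.0251). AM control libraries held 172.5, 158.5, 48.8 and 50.8 CPM, and AM heat libraries 273, 379, 121 and 117 CPM. All 4 numbered pairs were higher with heat, and numbers 1 and 2 lay above numbers 3 and 4 in both groups, which overlapped. The AM log2 fold change was 1.05 ± 0.48 (adjusted p = 0.160), and 1.07 with the replicate block, where it passed (adjusted p = 0.0152).

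Since XTH22 and XTH23 had the largest PM heat responses of the 10, the 250 bases before the annotated start of each are shown, 5′ to 3′ towards the gene, from TAIR10.1 in RefSeq. Capitals mark TATAAA, the core of a TATA box, on either strand.
XTH22: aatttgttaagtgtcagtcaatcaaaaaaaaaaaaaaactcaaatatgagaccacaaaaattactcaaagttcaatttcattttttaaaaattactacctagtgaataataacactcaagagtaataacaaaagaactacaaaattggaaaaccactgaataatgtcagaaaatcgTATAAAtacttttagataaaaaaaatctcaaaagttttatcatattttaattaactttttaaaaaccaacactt
XTH23: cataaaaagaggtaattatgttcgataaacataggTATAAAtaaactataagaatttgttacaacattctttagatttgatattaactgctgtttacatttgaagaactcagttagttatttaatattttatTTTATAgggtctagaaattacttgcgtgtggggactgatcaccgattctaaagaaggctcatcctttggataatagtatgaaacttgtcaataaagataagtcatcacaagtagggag
The windows span chr5:23308681-23308930 (minus strand) and chr4:13128144-13128393 (plus strand). The heat shock element core GAANNTTC, the G-box CACGTG, the CGCG core bound by calmodulin-binding CAMTA factors, the brassinosteroid element CGTGCG, the evening element AAATATCT and the phytochrome-interacting factor box CACATG were also searched on both strands. None of those letters occurred in these windows. Other spellings were not searched, such as CGTGTG for the brassinosteroid element, which the XTH23 window holds. Over the windows of 9 members, XTH24 not included, GAANNTTC was in the XTH33 window alone, against 9.55% of 27443 protein-coding genes, and AAATATCT in that of XTH5 (4.79%). CGCG was in the XTH18 window (10.1%) and CACATG in those of XTH18 and XTH33 (11.1%), while CACGTG (6.49%) and CGTGCG (1.57%) were in none. TATAAA was in 3 windows, those of XTH16, XTH22 and XTH23, against 47.3%. These are matches of letters in a short window and describe no binding.

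**Figure D1:**
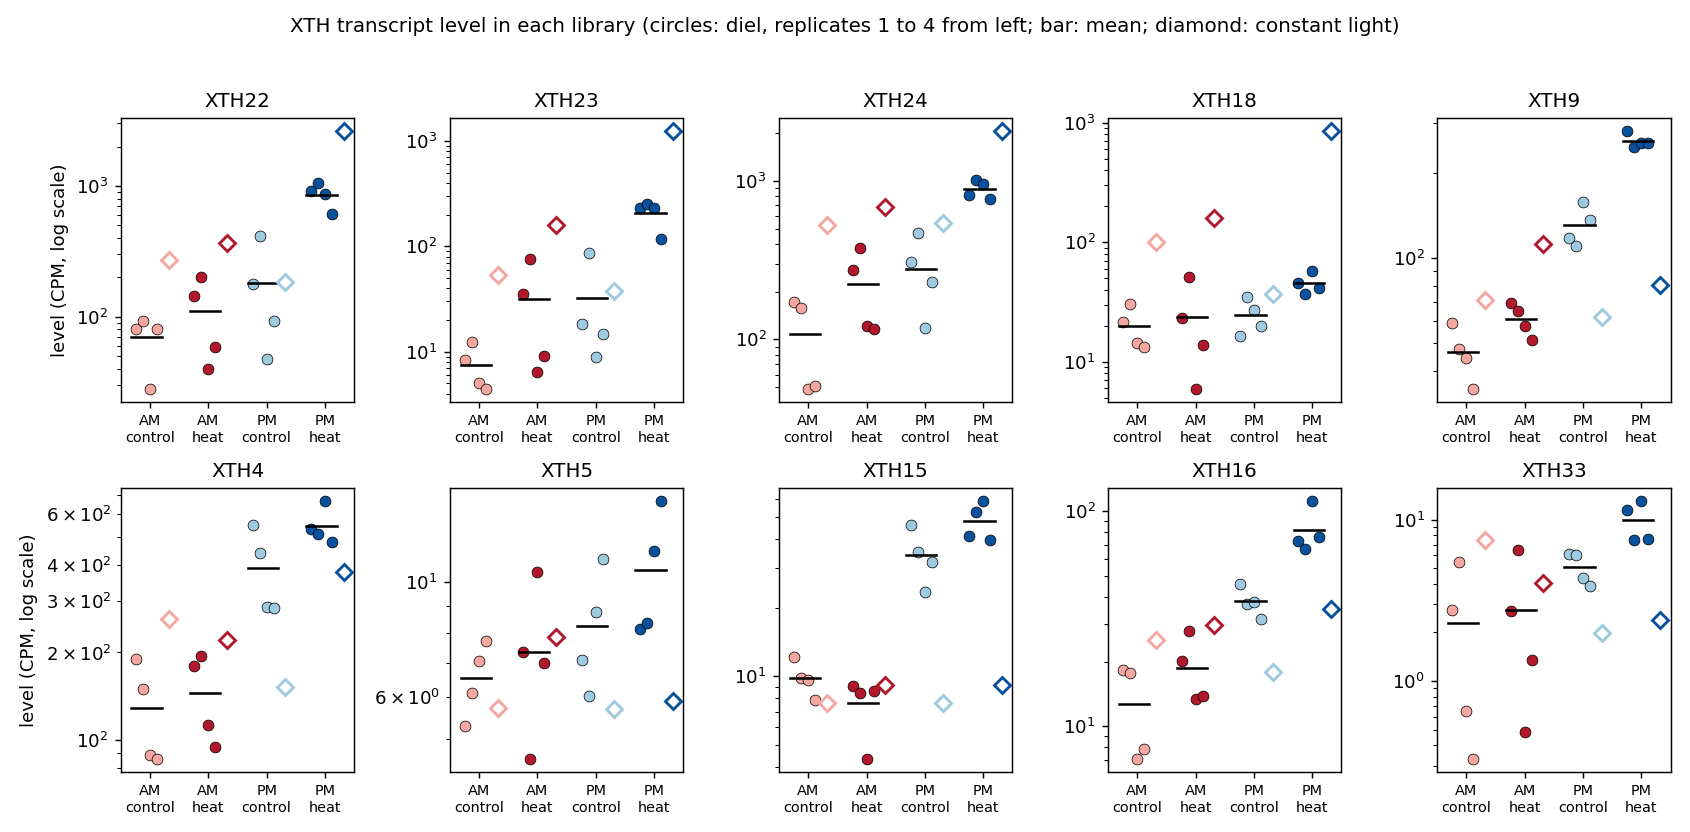
Level of each XTH gene (CPM, log axis) in the 16 diel libraries (circles, replicates 1 to 4 from left to right, bar at the mean) and the 4 constant light libraries (diamonds). The 4 PM heat circles of XTH22, XTH23, XTH24, XTH18, XTH9, XTH16 and XTH33 all lie above their PM control circles, and no gene separates AM heat from AM control.

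XTH18 belongs to a branch of the family described mainly in elongating root cells. Its PM control level was 16.5, 34.6, 27.1 and 20 CPM and its PM heat level 45.9, 37.0, 57.9 and 41.3 CPM. All heated libraries were higher than all controls, but the log2 fold change of 0.89 ± 0.46 did not pass (adjusted p = 0.175). In the morning the spread was wide, at 13.1 to 30.7 CPM in the control and 5.92 to 51.5 CPM in the heated libraries.

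XTH9, XTH4, XTH15, XTH16 and XTH5 are members linked with growing and wood-forming tissue or, for XTH15 (XTR7), with the elongation of shaded stems and petioles. XTH9 had the tightest replicates of the 10 in PM heat relative to its mean. PM control libraries held 118, 111, 159 and 137 CPM and PM heat libraries 281, 246, 255 and 256 CPM. The groups lay far apart, and the rise of 1.98-fold had the smallest adjusted p of the 10 (log2 0.99 ± 0.16, adjusted p = 0.000968). The AM difference was 0.39 ± 0.16 (adjusted p = 0.121), with all 4 numbered pairs higher.

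XTH16 rose in the evening too. Its PM control libraries held 45.8, 37.2, 37.8 and 31.4 CPM and its PM heat libraries 72.5, 66.6, 111 and 76.0 CPM. The groups did not overlap, and the fold was 2.14 (log2 1.1 ± 0.30, adjusted p = 0.0187). The AM difference was 0.56 ± 0.31 on the log2 scale (adjusted p = 0.247).

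XTH4, with XTH24 at the top of the 10 per kilobase in unstressed plants, held 549, 442, 288 and 285 CPM in PM control and 531, 512, 664 and 481 CPM in PM heat. Numbers 1 and 2 barely differed between control and heat, while numbers 3 and 4 were higher with heat. The log2 fold change was 0.49 ± 0.30 (adjusted p = 0.253), and 0.58 with the replicate block, where it passed (adjusted p = 0.0328). XTH15 gave 0.49 ± 0.23 (adjusted p = 0.131), with 46.0, 35.3, 23.4 and 31.8 CPM in PM control and 41.3, 52.6, 58.7 and 39.8 CPM in PM heat. It was also the only member with a lower mean after AM heat (log2 -0.36 ± 0.24, adjusted p = 0.338). XTH5 stayed low throughout, at 4.57 to 14.3 CPM over the 16 diel libraries, and its PM heat log2 difference was 0.36 ± 0.25 (adjusted p = 0.325).

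XTH33, which encodes an XTH with a predicted membrane anchor, was the lowest of the 10 per kilobase in both AM groups. PM control libraries held 6.15, 6.04, 4.33 and 3.87 CPM and PM heat libraries 11.5, 7.42, 13 and 7.57 CPM. The heated libraries were all higher, by 0.95 ± 0.65 on the log2 scale (adjusted p = 0.307). At these depths the AM levels of 0.330 to 6.51 CPM rest on few reads in some libraries, the lowest on 6.

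Over the 10 genes, 5 rose with PM heat and none fell, while 7.59% of all tested genes rose. Because the 10 were chosen with earlier results of these data known, the shares given beside their counts are a description and no test. With the replicate block 6 rose, against 11.5% of all genes. The median log2 fold change was 0.97 for the members and -0.032 over all tested genes, and all 10 estimates were above 0. In 7 of the 10, every heat library lay above every control library, which held for 11.2% of tested genes. With AM heat 0 of 10 passed edgeR's quasi-likelihood test in either direction, where 5.2% of tested genes rose and 8.36% fell. At an unadjusted p under 0.05 there were 3, all higher (XTH9, XTH23 and XTH24), where 13.6% of all tested genes were higher at that p. DESeq2 called 1 (XTH23, adjusted p = 0.0468), where it called 5.93% of all genes higher, and the replicate block called 2, against 7.66% of all genes rising in that fit. The members' median AM log2 difference was 0.33, beside 0.028 over all genes, and in none of the 10 were the heated libraries all above the controls (10.4% of tested genes).

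The PM calls were sensitive to single libraries. Without PM control 4 only XTH9 remained called, with XTH16 at 1.02 (adjusted p = 0.0534), XTH22 at 2.01 (0.0504), XTH23 at 2.43 (0.0597) and XTH24 at 1.58 (0.0654). Without PM control 3 the adjusted p of XTH23 was 0.0600 and that of XTH24 0.0724. Without PM heat 3 that of XTH16 was 0.0681 and that of XTH24 0.0567, and without PM control 1 that of XTH23 was 0.0527. In the morning 1 gene was called without AM control 1 (XTH9, 0.52, adjusted p = 0.0480), without AM heat 3 (XTH23, 2.39, 0.0481) and without PM control 2 (XTH23, 2.06, 0.0322).

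Whether the response differed between PM and AM was tested by the time by heat interaction. All 10 estimates were above 0, that is, higher in the PM, with a median of 0.62 on the log2 scale, but 0 of 10 passed, where 0.234% of tested genes did in this direction. An unadjusted p under 0.05 was reached by 2, XTH9 (0.60 ± 0.23, adjusted p = 0.282) and XTH15 (0.86 ± 0.33, adjusted p = 0.285), where 5.64% of all tested genes were above 0 at that p. DESeq2 called 0 of the 10, and 1.44% of all genes in this direction. XTH22 had the largest estimate, 1.57 ± 0.82 (adjusted p = 0.464), and with the replicate block it was 2.22 and passed (adjusted p = 0.0379), as did 1.58% of all genes. That 5 genes passed in the PM and none in the AM therefore does not show a different response at the 2 times. The main fit called none of the 10 in the interaction, and the call of XTH22 depended on the fit.

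**Figure D2:**
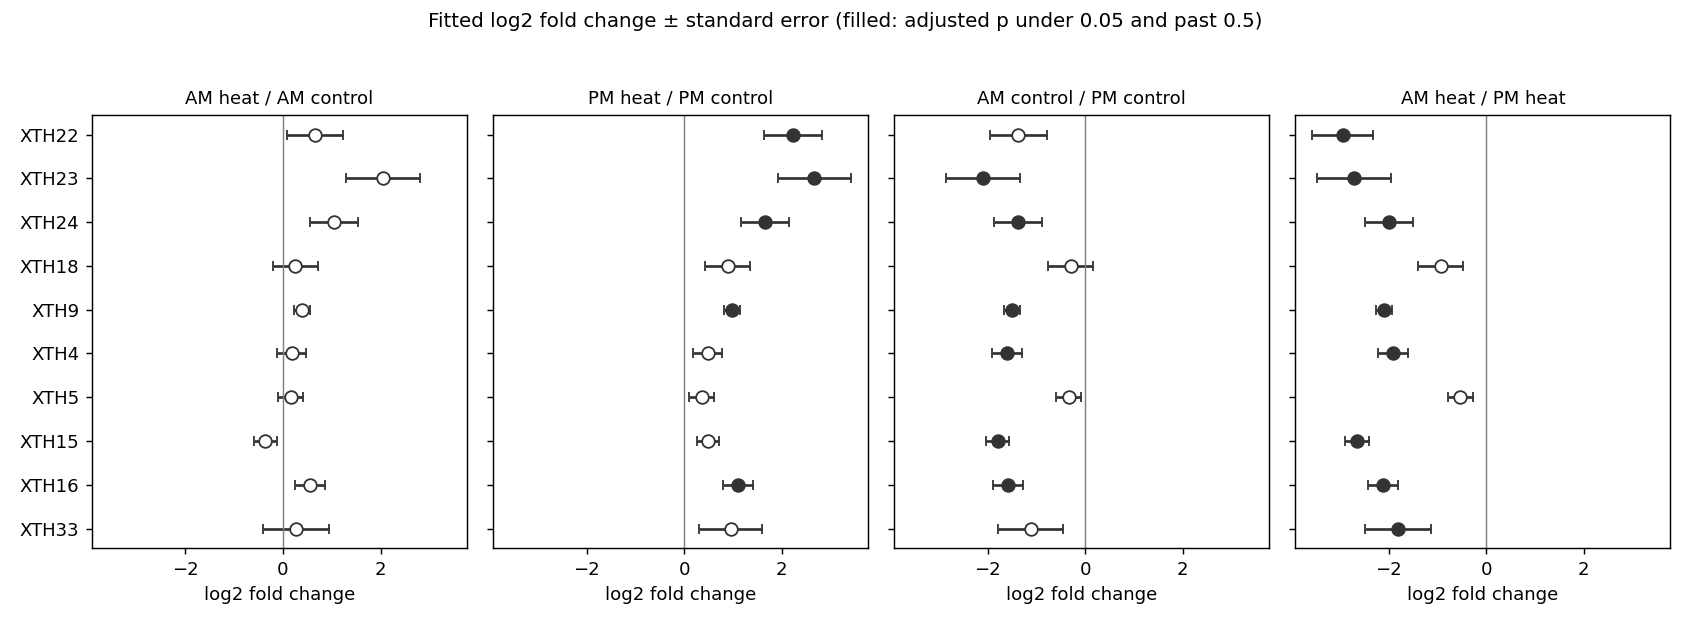
Fitted log2 fold change (x axis) of each XTH gene with its standard error in 4 contrasts, filled where the adjusted p was under 0.05 and the change past 0.5. The PM heat panel has 5 filled points, all to the right of 0, the AM heat panel has none, and all points of the AM against PM panels lie to the left of 0.

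The libraries split by replicate number. Libraries 1 and 2 of the AM control held more than libraries 3 and 4 in 9 of the 10 genes, with a median ratio of 1.92, and the same held for 9 genes in AM heat (2.28) and 8 in PM control (1.48). After PM heat the median ratio was 0.937, and 4 of 10 genes were higher in libraries 1 and 2. The labels do not say what the numbers stand for. The split is not particular to the XTH genes. Over 14816 genes, libraries of different groups deviated together for the same number (mean r = 0.512) and for the other number of the same pair (0.496). The share of all genes higher in libraries 1 and 2 was not computed. For XTH22 the ratio of libraries 1 and 2 to 3 and 4 was 4.24 in PM control and 1.34 in PM heat, and for XTH24 it was 2.23 and 1.07.

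For XTH22, XTH23 and XTH24 the ratio of PM heat to PM control was larger in libraries 3 and 4. Within libraries 1 and 2 the ratio of mean PM heat to mean PM control was 3.33 for XTH22, 4.54 for XTH23 and 2.37 for XTH24, and within libraries 3 and 4 it was 10.5, 14.6 and 4.96. The direction was the same in both sets for all 10 genes. For AM heat the sets went apart in XTH22 (1.99 in libraries 1 and 2, 0.914 in libraries 3 and 4) and XTH18 (1.44 and 0.719), while XTH23 (5.36 and 1.63) and XTH24 (1.97 and 2.38) were above 1 in both. Fitted alone with 2 libraries per group, numbers 3 and 4 called 9 of 10 genes higher with PM heat, all but XTH5, where 18.5% of all genes tested in that fit were called higher. Numbers 1 and 2 called 3 (XTH9, XTH22 and XTH24), where 2.23% of all genes were, so the calls over all genes differed between the sets as well. The difference between the sets was not tested.

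**Figure D3:**
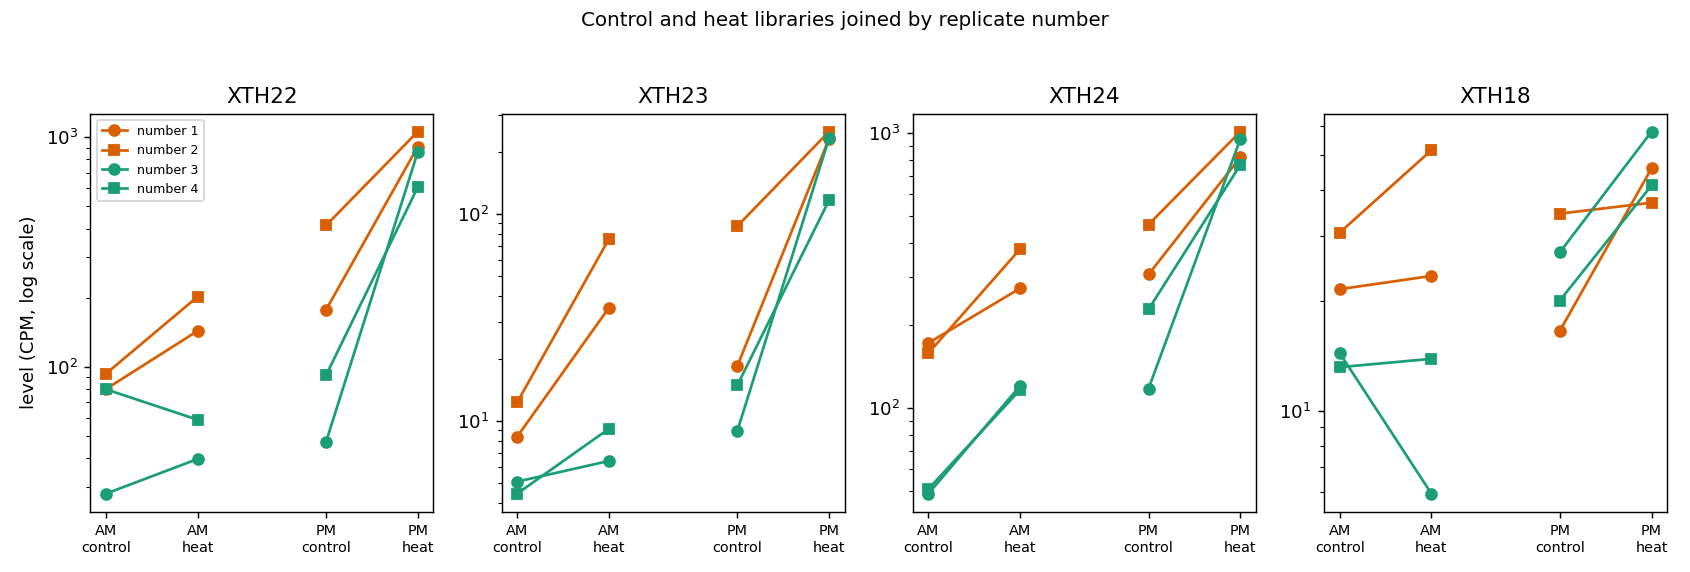
Level of XTH22, XTH23, XTH24 and XTH18 (CPM, log axis) in control and heat libraries, joined by replicate number (orange 1 and 2, green 3 and 4). The orange controls mostly start above the green ones, and the PM heat ends lie close together, from 604 to 1056 CPM for XTH22.

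All 10 genes had lower means in AM control than in PM control. The test called 6 of them lower, where 13.8% of all genes were, and none higher (14.9% of all genes). The median log2 difference, AM control minus PM control, was -1.44 for the members and -0.068 over all tested genes. XTH4 held 189, 149.8, 88.8 and 85.9 CPM in AM control, all below the PM control range of 285 to 549 CPM (log2 -1.60 ± 0.30, adjusted p = 0.000625). XTH9 held 58.9, 47.8, 44.5 and 34.6 CPM, against 111 to 159 CPM (-1.49 ± 0.17, adjusted p = 3.15e-06).

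For XTH15 the difference was of the same order. Its AM control libraries held 12.1, 9.84, 9.60 and 7.86 CPM and the PM controls 23.4 to 46.0 CPM (log2 -1.79 ± 0.24, adjusted p = 2.23e-05). XTH16 held 18.3, 17.6, 7.05 and 7.81 CPM against 31.4 to 45.8 CPM (-1.58 ± 0.31, adjusted p = 0.000938). These 4 genes were the ones without overlap between the groups, where 14.4% of tested genes had every AM library below every PM library.

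XTH23 (-2.09 ± 0.76, adjusted p = 0.0440) and XTH24 (-1.38 ± 0.49, adjusted p = 0.0395) also passed, with overlapping groups. Without PM control 2 they came to -0.88 (adjusted p = 0.324) and -1.01 (adjusted p = 0.133). XTH23 also missed the threshold without AM control 1, 3 or 4, AM heat 1, or PM heat 1, 2 or 3, at -1.91 to -2.14 (adjusted p 0.0528 to 0.109). XTH24 did so without AM control 3, AM control 4 or PM control 1 as well, at -1.14 to -1.33 (adjusted p 0.0664 to 0.110). With the replicate block XTH22 (-1.08, adjusted p = 0.0265) and XTH33 (-1.42, adjusted p = 0.0425) passed too, making 8, against 17.3% of all genes. Without the block XTH22 passed when PM control 3 was left out (-1.69, adjusted p = 0.0283) and XTH33 when AM control 2 was (-1.99, adjusted p = 0.0436). XTH5 and XTH18 passed in neither fit, at -0.33 ± 0.26 and -0.30 ± 0.46 without the block.

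Between heated plants the estimated gap was wider for all 10 genes. The change of the gap is the time by heat interaction given above, which 0 of 10 passed in the main fit. The test called 8 of 10 lower in AM heat than in PM heat, against 17.9% of all genes, and none higher (19% of all genes). In the same 8 every AM heat library lay below every PM heat library, as it did for 20.1% of tested genes. The median log2 difference was -2.04, beside 0.0043 over all genes. XTH22 was 7.71-fold lower (log2 -2.95 ± 0.62, adjusted p = 0.00115), XTH23 6.52-fold (-2.71 ± 0.76, adjusted p = 0.00882) and XTH15 6.27-fold (-2.65 ± 0.25, adjusted p = 3.28e-07). XTH9, at 51.2 to 69.3 CPM against 246 to 281 CPM, was 4.27-fold lower (adjusted p = 6.46e-08).

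XTH33 (-1.81 ± 0.67, adjusted p = 0.0406) missed the threshold without AM heat 1, 3 or 4 or PM heat 1, 3 or 4, at -1.48 to -1.92 (adjusted p 0.0506 to 0.106). XTH5 and XTH18 passed only with the replicate block (-0.53, adjusted p = 0.0174, and -1.20, adjusted p = 0.0180), where all 10 were called lower, as 21% of all genes were. XTH18 also passed without AM heat 2 (-1.66, adjusted p = 0.00442) and XTH5 without AM heat 3 (-0.75, adjusted p = 0.0323). The unstressed comparison shares its control libraries with both heat responses.

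Levels of different genes were compared per kilobase of annotated exon. In AM control XTH24 (89.0 ± 55.4 CPM per kb, SD, n = 4), XTH4 (79.6 ± 31.1) and XTH22 (44.2 ± 18.2) led, and no neighbours in that order differed by more than their summed SDs except XTH9 (30.5 ± 6.6) and XTH18 (15.8 ± 6.4). In PM control XTH4 led at 242 ± 79.5 CPM per kb, close to XTH24 at 231 ± 121. After PM heat the order was XTH24 (734 ± 95.0), XTH22 (539 ± 118), XTH4 (339 ± 50), XTH9 (170 ± 9.9), XTH23 (151 ± 44.5), XTH16 (67.1 ± 16.6), XTH15 (39.9 ± 7.5), XTH18 (36.1 ± 7.1), XTH33 (8.18 ± 2.33) and XTH5 (5.50 ± 1.52). There the neighbours within their summed SDs were XTH24 and XTH22, XTH9 and XTH23, XTH15 and XTH18, and XTH33 and XTH5. XTH23 moved from the eighth place in AM control to the fifth in PM heat.

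In constant light, with 1 library per condition and no test, 4 of the genes stood out after PM heat. XTH22 was at 2624 CPM (95% exact Poisson interval of the count, 2588 to 2659) against 185 CPM (178 to 192) in LL PM control. XTH23 was at 1237 CPM (1213 to 1262) against 37.6 (34.6 to 40.8), XTH24 at 2058 (2027 to 2090) against 538 (527 to 550), and XTH18 at 852 (832 to 873) against 36.6 (33.6 to 39.8). The intervals cover counting error only. All 4 levels were above the highest diel PM heat library, which for XTH18 held 57.9 CPM.

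On the log2 scale with 0.5 CPM added, the LL PM heat differences were 5.02 for XTH23, 4.52 for XTH18, 3.82 for XTH22, 1.93 for XTH24, 1.32 for XTH4 and 0.97 for XTH16. These 6 were past 0.5, as were 21.5% of tested genes in that direction. XTH9, which passed the diel PM test, came to 0.37 in LL. With LL AM heat 3 were higher, XTH23 (1.59), XTH9 (0.66) and XTH18 (0.65), where 13.4% of genes were, and 1 was lower, XTH33 (-0.81), where 12.5% were.

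The lower AM levels of the unstressed diel plants were not seen in constant light. None of the 10 was past 0.5 in the direction of lower AM levels, where 17.2% of tested genes were, and 4 were past it in the other, XTH33 (1.68), XTH18 (1.45), XTH4 (0.78) and XTH22 (0.54), where 15.2% of tested genes were. XTH4 held 261 CPM in LL AM control and 151 CPM in LL PM control. Between the heated LL libraries 5 genes were lower in the AM (23.8% of genes), XTH23 (-2.94), XTH22 (-2.83), XTH18 (-2.42), XTH24 (-1.60) and XTH4 (-0.78), and XTH33 (0.66) was higher (28.5% of genes).

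Set beside the diel libraries of the same condition, the LL level in AM control was above the diel range for 8 of 10 genes (33.8% of tested genes) and below it for 1 (29.4%). In AM heat it was above for 8 (30.3%) and below for 0 (31.1%). In PM heat it was above for 4 (XTH18, XTH22, XTH23 and XTH24), where 31.1% of tested genes were, and below for the other 6 (35.4%). XTH9 was at 80.3 CPM in LL PM heat where the diel range was 246 to 281, and XTH15 at 9.16 CPM where it was 39.8 to 58.7. In PM control 6 genes were below the diel range, XTH4, XTH5, XTH9, XTH15, XTH16 and XTH33 (24.4% of tested genes), and 2 were above (23.4%). These differences have no replicate check.

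Over the 16 diel libraries the genes were alike in pattern apart from XTH5. Pearson's r of log2(CPM + 1) ran from 0.619 to 0.962 over the 36 pairs without XTH5 and from -0.02 to 0.565 over its 9 pairs. The closest pairs were XTH22 and XTH23 (0.962), XTH4 and XTH16 (0.961), XTH23 and XTH24 (0.956) and XTH9 and XTH16 (0.95). These libraries share 4 groups and the split by number, so r describes that structure and carries no p.

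**Figure D4:**
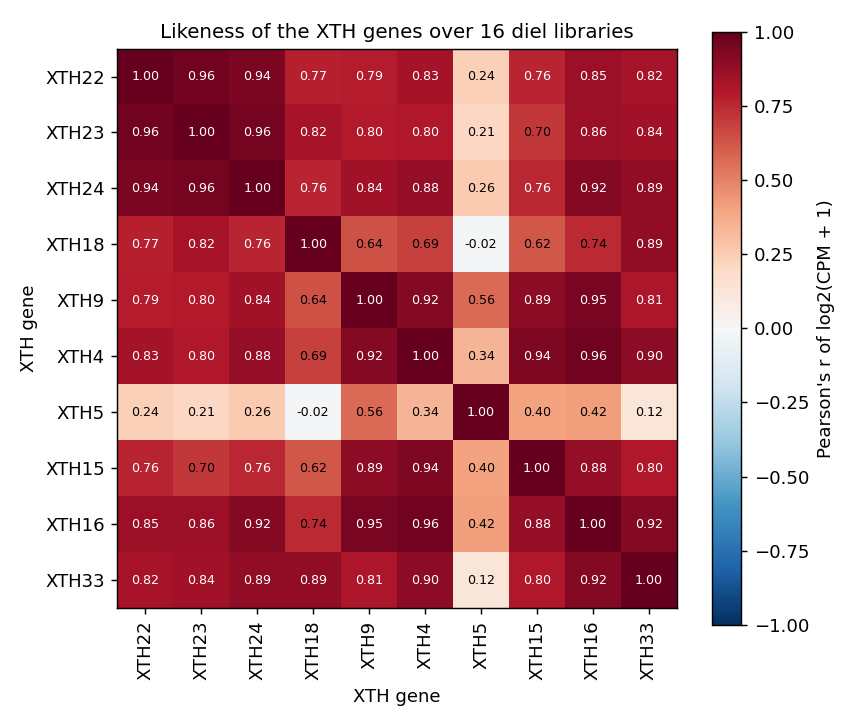
Pearson's r of log2(CPM + 1) over 16 diel libraries between each pair of XTH genes, coloured from -1 to 1 and printed in each cell. XTH22, XTH23 and XTH24 form a block at 0.94 to 0.96, and the row of XTH5 is pale.

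Among 14806 other genes averaging 5 CPM or more, the one most like both XTH22 (r = 0.973) and XTH23 (r = 0.975) was AT1G35140, PHI-1 or EXORDIUM-like 1. TCH3, a calmodulin-like gene also found through touch, came next for XTH22 (r = 0.970). XTH24 was most like BCB, a blue copper binding protein (r = 0.979), XTH18 like EXLA2, an expansin-like gene (r = 0.925), and XTH33 like PATL2 (r = 0.957). XTH15 was most like ACHT5, a thioredoxin (r = 0.981), XTH9 like CKA2, a catalytic subunit of casein kinase II (r = 0.972), and XTH4 like AT5G45550, a MOB1-like gene (r = 0.987). For XTH16 and XTH5 they were AT1G50040 (r = 0.978) and AT4G04614 (r = 0.924).

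The other family members were counted too. Of 23 other XTH loci 20 were tested, and 0 rose and 4 fell with PM heat, where 7.59% of all genes rose and 10.6% fell. They were XTH20 (log2 -2.72), XTH31 (-1.37), XTH8 (-1.02) and XTH32 (-0.75), and the median of the 20 was -0.37. With AM heat XTH7 rose (0.76) and 5 fell, XTH20 (-2.30), XTH14 (-1.63), XTH19 (-1.48), XTH21 (-1.33) and XTH32 (-0.69). Of all tested genes 5.2% rose and 8.36% fell with AM heat. In unstressed plants 4 were higher in the AM, XTH32 (3.54), XTH31 (2.47), XTH7 (1.37) and XTH17 (1.16), and 5 were lower, among them XTH25 (-3.26), the neighbour of XTH22. Of all tested genes 14.9% were higher and 13.8% lower in that comparison. Whether the 10 differ from the other loci was not tested.

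Of 15 genes that build or trim xyloglucan, CSLC4, a glucan synthase of the xyloglucan backbone, rose with PM heat from a mean of 49.4 to 87.3 CPM (log2 0.82 ± 0.27, adjusted p = 0.0413). AXY4, which acetylates xyloglucan, fell (-0.74), as did CSLC5 (-0.60) and CSLC8 (-0.66), and the other 11 did not pass. With AM heat only the galactosidase gene BGAL10 passed (-0.68). Over all tested genes 7.59% rose and 10.6% fell with PM heat, and 5.2% rose and 8.36% fell with AM heat. Of 3 further touch genes TCH2 rose with PM heat (0.75 ± 0.25, adjusted p = 0.0400). TCH3 went from a mean of 236 CPM in PM control to 625 CPM in PM heat and did not pass. In unstressed plants the 3 touch genes went in different directions by edgeR's quasi-likelihood test. TCH3, at 77.7 CPM in AM control, was lower in the AM (log2 -1.60 ± 0.51, adjusted p = 0.0236), as was TCH1 (-0.73 ± 0.20, adjusted p = 0.00902). TCH2 was higher in the AM (0.87 ± 0.25, adjusted p = 0.0117). Of all tested genes 13.8% were lower and 14.9% higher in that comparison.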

How the data were processed

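Aerial tissue of Arabidopsis seedlings was profiled by poly(A) RNA-Seq in 20 libraries. The deposited values are raw read counts per locus, which the authors made by aligning reads to TAIR10 with TopHat2 2.1.0 and counting with HTSeq 0.6.0 on the reverse strand (intersection not empty). All 16 diel libraries were fitted together in edgeR 4.0.16 (R 4.3.3) with TMM scaling, 1 coefficient per group and the quasi-likelihood test. A locus was tested where 1 or more diel libraries held 10 counts or more (21404 loci), and p-values were adjusted by Benjamini-Hochberg over all of them. A gene was called at an adjusted p under 0.05 and a log2 fold change past 0.5, and the interaction by adjusted p alone. The study used DESeq2 for this design, and DESeq2 1.42.0 was an alternative here. The fit was also run on simulated counts with the same dispersion for all genes and no split by replicate number. That run cannot show how the fit behaves with the split seen here. Constant light libraries, 1 per condition, were scaled to the same reference library and not tested, and 0.5 CPM was added for their folds. Depth sets the precision of low genes, and the Poisson intervals cover counting error only.

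Same-numbered libraries of different groups deviated together in each of 24 pairs of libraries (mean r = 0.512, lowest 0.117, over 14816 genes). But so did libraries with the other number of the same set (1 with 2, 3 with 4, mean r = 0.496). These correlations show the sets. In another group, a library was most like its own number in 21 of 48 cases, and the labels give only the numbers. Libraries of equal number are thus not known to be matched pairs. Since the numbers are shared between groups, the fit with the number as a block was made too. Other alternatives were RLE and upper-quartile scaling, other count filters, glmTreat, the compared groups alone, the set of numbers as a term and each library left out. The fits of libraries 1 and 2 or 3 and 4 alone were chosen after seeing the data. The 10 members and the gene lists were chosen with earlier results of these data known, and all 10 are named. Of the other XTH, xyloglucan and touch genes, those that passed in a heat response were named. Of those that passed between AM and PM only some were named. For likeness the gene ranked first by r was named. TCH3 as the next gene for XTH22, the genes printed as sequence and the motifs were chosen after their values were seen. Sequences, exon lengths and coordinates were read from RefSeq TAIR10.1 with Python 3 and Biopython, and the promoter of 1 member is not reported here. Its coordinates were not compared with the authors' annotation, whose files give loci only.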

Additional observations from a re-analysis of the deposited data

Results flagged for a closer look

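In 40 sets of 4 replicates (10 genes in 4 diel groups), 3 held a library whose gap to the others, as a share of the whole range, was past Dixon's 95% critical value, which chance passes in about 1 of 20 sets. XTH23 was at 87.3 CPM in PM control 2, where the other PM controls held 8.93 to 18.4 CPM. XTH23 was at 116 CPM in PM heat 4, where the other PM heat libraries held 230 to 249.6 CPM. XTH15 was at 4.34 CPM in AM heat 3, where the other AM heat libraries held 8.45 to 9.10 CPM. What sets these libraries apart was not tested.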

How the results depend on the processing

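The PM heat count of 5 genes was the same or within 1.5 times under DESeq2, other scalings and filters, the compared groups alone and the replicate block. It was 1 under glmTreat (1.78% of all genes higher), 3 with libraries 1 and 2 alone (2.23%), 9 with libraries 3 and 4 alone (18.5%) and 1 to 5 with a library left out (5% to 10.5%). The AM count of 0 was 1 under DESeq2 (5.93%), 2 with the replicate block (7.66%), 2 with the set of numbers as a term (7.92%), 2 with libraries 3 and 4 alone (9.2%) and 0 to 1 with a library left out (3.82% to 5.47%). The interaction count of 0 was 1 with the replicate block (1.58%), 1 with the set of numbers as a term (2.39%) and 3 with libraries 3 and 4 alone (5.22%). The block changed no call other than those given in the report. The unstressed count of 6 was 7 under DESeq2 (13.8% of all genes lower), 4 under glmTreat (5.63%) and 4 with the compared groups alone (10.7%). XTH23 and XTH24 lost their unstressed calls both under glmTreat and with the compared groups alone. The heated count of 8 was 7 under glmTreat (9.85%), where XTH33 lost its call. With a library left out the unstressed count ran from 4 to 7 (12% to 14.2% of all genes lower) and the heated count from 7 to 9 (16.5% to 18.5%). In constant light the AM heat count of 4 was 1 at a log2 limit of 1, and the unstressed count of 4 was 2 at that limit and 2 with no TMM factor. Some small estimates changed sign. With a library left out, AM heat ran from -0.47 to 0.57 for XTH18, from -0.60 to 1.14 for XTH33 and from -0.056 to 0.335 for XTH5, and the interaction of XTH33 from -0.18 to 1.56. With libraries 3 and 4 alone AM heat was -0.44 for XTH18 and -0.13 for XTH22. With libraries 1 and 2 alone the unstressed difference of XTH18 was 0.029 and the interaction was -0.068 for XTH4 and -0.24 for XTH23. None of these was called, and the cause was not tested. Of 800 gene results with a library left out, 27 lost a call and 7 gained one, and of 580 under other settings 12 lost and 33 gained one. Low counts limit XTH5 and XTH33.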
